A study of Mus musculus with 2 samples.

Results

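The 10 genes described here move, store or sense iron in mouse cells, and were chosen by symbol from 55536 annotated mouse genes: the ferritin genes Fth1 and Ftl1, Ncoa4, the transporter genes Tfrc, Slc11a1, Slc11a2 and Slc40a1, the lipocalin gene Lcn2, and the sensor genes Aco1 and Ireb2. All 10 were found, and all 10 stood at 1 TPM or more in both libraries. TPM is a read-based level corrected for the length of the transcript and for sequencing depth. Polyadenylated RNA was sequenced from C57BL/6J mouse macrophages, primary cells differentiated from bone marrow, after 120 minutes with 100 ng/ml of the stimulus. The labels give that stimulus as lipid A, the membrane anchor of bacterial lipopolysaccharide, in the free text and as the protein lipoprotein A in the treatment field. Both libraries (biological replicates 1 and 2) form 1 group and share 1 donor record, and sex and age were not collected. Separate cultures or animals are not stated, so the spread between the libraries may be technical. No unstimulated library was analysed here, so every value is a level after stimulation and not a response to it, and with 1 library on each side of a ratio no p-value was computed.

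Cells take up transferrin-bound iron through the transferrin receptor, carry it out of endosomes through Slc11a2 (DMT1), store the surplus in ferritin shells built of heavy and light chains, and export it through ferroportin, the product of Slc40a1. Macrophages recycle iron from engulfed red cells, and they also keep it from microbes, with Slc11a1 (Nramp1) pumping metal out of the phagosome and the secreted protein of Lcn2 binding bacterial siderophores. When iron is scarce, the iron regulatory proteins IRP1 (Aco1) and IRP2 (Ireb2) bind hairpins called iron-responsive elements: bound in a 5′ UTR they block translation, and bound in the 3′ UTR of Tfrc they protect the mRNA from decay.

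The elements are shown because their position differs between the storage and export genes on one side and the uptake genes on the other. They also mark which of these mRNAs carry the hairpin pattern known to bind the sensors. They were searched on the sense strand of the annotated UTRs of GENCODE M21 transcripts as a C, 5 stem bases, the loop CAGTGN and 5 stem bases that pair with the first 5 by Watson-Crick or G-T pairs. Each window below has 30 bases in mRNA direction, 5′ to 3′, with the loop in capitals.
Fth1: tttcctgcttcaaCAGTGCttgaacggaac
Ftl1: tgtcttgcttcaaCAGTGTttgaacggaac
Slc40a1: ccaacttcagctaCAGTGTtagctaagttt
Tfrc 1: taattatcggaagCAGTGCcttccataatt
Tfrc 2: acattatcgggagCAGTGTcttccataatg
Tfrc 3: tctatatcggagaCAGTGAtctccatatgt
Tfrc 4: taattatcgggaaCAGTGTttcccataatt
Slc11a2: gagccatcagagcCAGTGTgtttctatggt
In build mm10 the Fth1 window is at chr19:9982731-9982760 on the plus strand, the Ftl1 window at chr7:45459779-45459808 on the minus strand and the Slc40a1 window at chr1:45925465-45925494 on the minus strand, each in exon 1 and in the 5′ UTR. The Tfrc windows are on the plus strand in the last exon, 19 of 19, within the 3′ UTR, at chr16:32631218-32631247, chr16:32631597-32631626, chr16:32631662-32631691 and chr16:32631709-32631738. The Slc11a2 window, at chr15:100395153-100395182 on the minus strand, lies in the 3′ UTR and was found only when 4 of 5 stem positions had to pair.

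The ferritin windows were nearly the same sequence, with 27 of 30 positions identical, whereas Fth1 and Slc40a1 shared 13 of 30. The 4 Tfrc windows found shared between 18 and 25 of 30 positions with each other. Because the search fixed the loop, an element with another loop would be missed, so these need not be all. The elements of Fth1, Ftl1 and Slc40a1 began 92, 83 and 95 bases from the start of the mRNA, and those of Tfrc 888, 1267, 1332 and 1379 bases after the stop codon. A fully paired element was present in the 5′ UTR of 19 of 9591 expressed coding genes (0.198%) and in the 3′ UTR of 95 (0.991%), and with 4 of 5 positions paired in 114 (1.19%) and 611 (6.37%). Among the 10 genes, 3 had the fully paired form in the 5′ UTR and 1 in the 3′ UTR. In the UTRs of Slc11a1, Lcn2, Ireb2, Aco1 and Ncoa4 these letters were not found.

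**Figure D1:**
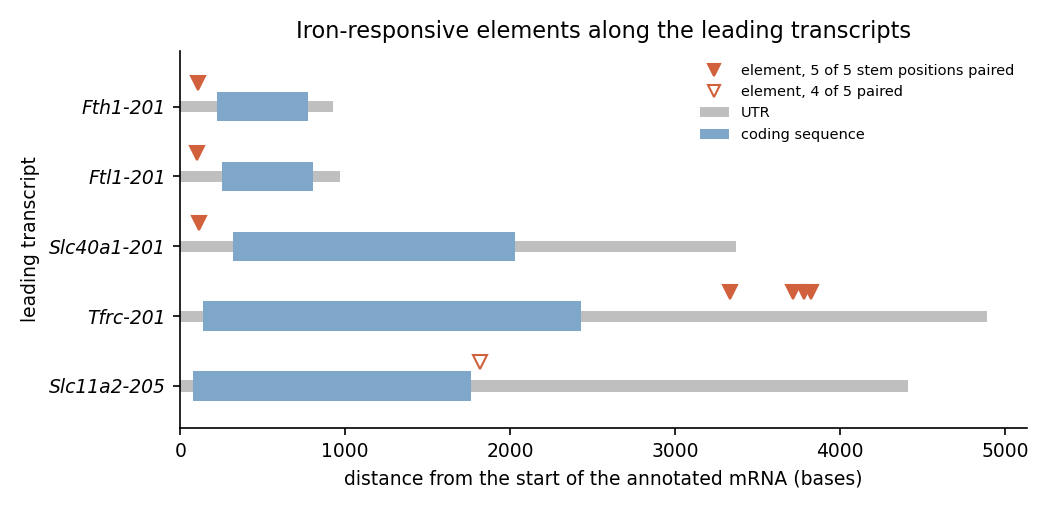
Bars show the leading transcript of the 5 genes with an element, by distance in bases from the mRNA start, with UTRs in grey, coding sequence in blue and triangles at the elements (filled, 5 of 5 stem positions paired, and open, 4 of 5). The Fth1, Ftl1 and Slc40a1 elements lie before the coding sequence. The 4 Tfrc elements found lie 888 to 1379 bases after it and the Slc11a2 element lies 37 bases after it.

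Ferritin dominated the group. Fth1, the heavy chain with the ferroxidase site, stood at 18809 TPM in replicate 1 and 23734 TPM in replicate 2, and Ftl1, the light chain, at 19208 and 19083 TPM. Together they made up 3.80% and 4.28% of all TPM, and among nuclear protein-coding genes Fth1 ranked 2 and 1 and Ftl1 ranked 1 and 3. The order of the chains differed between libraries: Fth1 over Ftl1 was 0.979 in replicate 1 and 1.24 in replicate 2, and 0.967 and 1.23 in the second quantification, which was deposited under kallisto column names.

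Between replicates Fth1 differed 1.36-fold, higher in replicate 2, as CPM (counts scaled to library size) normalised by TMM, the trimmed mean of M-values, with a 95% interval of 1.35 to 1.37 that covers counting error only. The log2 ratio of Ftl1 was 0.10 on that scale and -0.01 as TPM + 1, so its sign depended on the scale. The median log2 ratio of all genes was 0.01 by TMM and -0.09 as TPM + 1, and Ftl1 lay above it on both scales. For comparison, the median absolute log2 ratio over the 10445 genes averaging 50 or more counts was 0.24, so Ftl1 lay closer than the typical gene and Fth1 further apart.

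Ferritin has many near-copies in the mouse genome, and reads of a copy can be counted for the gene. Ftl1 had 10 annotated genes with at least 90% identity over at least 200 bases, 5 of them with counts in the gene table, and Fth1 had 1. The 5 held 4781 and 5379 estimated counts in replicates 1 and 2, or 1.61% and 1.24% of the Ftl1 counts of 296564 and 433088. In the second quantification the share of the 10 copies was 0.121% and 0.109%. Most sat in Ftl1-ps1 on chromosome 13, which is 99.56% identical to Ftl1 over 910 bases and had 4021 and 4194 counts, but only 206 and 221 in the second quantification. Antisense and overlapping entries were also among them: Gm10252, which overlaps Ftl1 on the other strand, had 388 and 512 counts in the gene table and 59.8 and 136 in the second, and Gm47428 had 359 and 662 against 62.1 and 43.7. Gm15590 had 10.9 and 9 counts in the gene table and 27.8 and 59.7 in the second, so not every copy was lower there, and Ftl2-ps had 1.69 and 1.71 against 7.73 and 9.20. The Fth1 copy Gm6977 had 1 and 4 counts, and 4.01 and 46.2 in the second quantification, against 273691 and 507396 for Fth1. Adding the copies left the Fth1 ratio at 0.44 and the Ftl1 ratio at 0.09.

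Ncoa4, the receptor that delivers ferritin to lysosomes so that its iron can be released, stood at 203 and 247 TPM. Its mRNA was 1.29-fold higher in replicate 2 (interval 1.26 to 1.32), in the same direction as Fth1, and Fth1 over Ncoa4 was 92.7 and 96.1. Its processed copy Gm6768, 99.894% identical over 1878 bases, had 45 and 146 counts in the gene table against 9928 and 17455 for Ncoa4, and 2.61 and 0 counts in the second quantification. Ncoa4 was divided among several coding transcripts: Ncoa4-201 took 52.8% and 51.8% of its TPM, and Ncoa4-203, annotated at 462 bases, took 29.3% and 32.1%. By counts, which do not divide by length, Ncoa4-203 held 2.53% in replicate 1 and Ncoa4-201 74.5%.

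**Figure D2:**
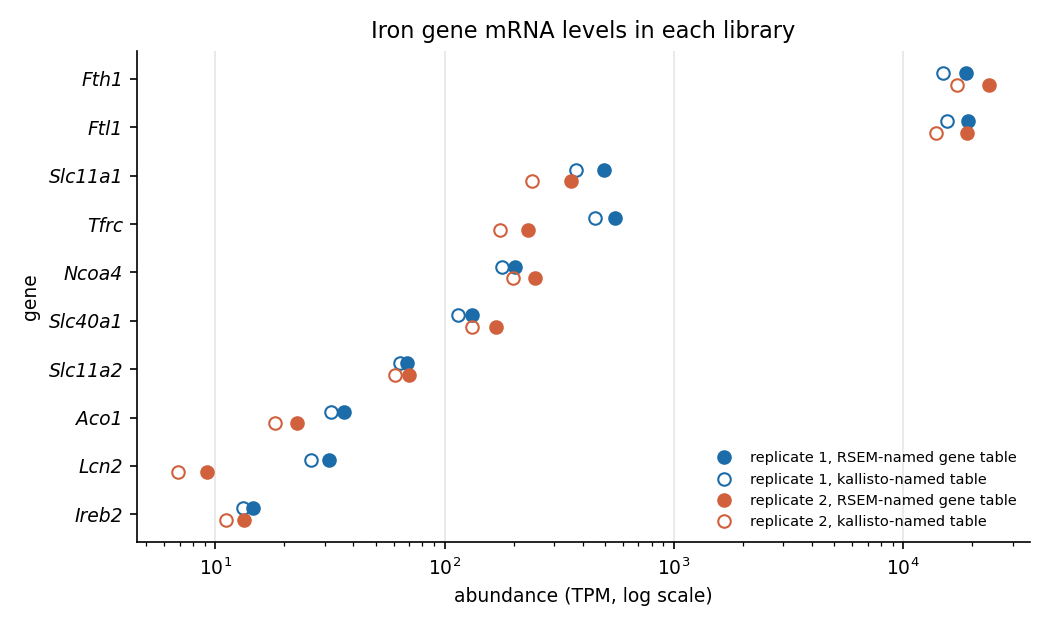
Points give the TPM of each gene on a log axis in replicate 1 (blue) and replicate 2 (orange), filled for the gene table and open for the second quantification. Fth1 and Ftl1 lie between 13876 and 23734 TPM, apart from the other 8 genes, and Tfrc and Lcn2 show the widest gaps between replicates.

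Of the 10 genes, 6 reached 100 TPM in both replicates (Fth1, Ftl1, Slc11a1, Tfrc, Ncoa4 and Slc40a1), beside 11.1% of the 10285 genes at 1 TPM or more in both. By mean TPM in the gene table the order was Fth1, Ftl1, Slc11a1, Tfrc, Ncoa4, Slc40a1, Slc11a2, Aco1, Lcn2 and Ireb2. Both libraries of a gene lay above both of the next gene in 4 steps of that order: Ftl1 over Slc11a1, Ncoa4 over Slc40a1, Slc40a1 over Slc11a2 and Slc11a2 over Aco1. The neighbours Fth1 and Ftl1, Slc11a1 and Tfrc, Tfrc and Ncoa4, Aco1 and Lcn2, and Lcn2 and Ireb2 overlapped.

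Tfrc, the receptor for transferrin-bound iron, was measured at 553 TPM in replicate 1 and 230.0 TPM in replicate 2, from 53435 and 32569 counts (391 ± 228 TPM, SD, n = 2). It was 2.24-fold lower in replicate 2 (interval 2.21 to 2.27), with a log2 ratio of -1.16 by TMM, -1.13 with DESeq2 size factors, -1.15 in the second quantification and -1.26 as TPM + 1. Tfrc and Lcn2 were the 2 of 10 genes at least 2-fold apart, both lower in replicate 2, where 3.96% of all genes averaging 50 or more counts were that far apart, 2.23% lower and 1.73% higher. Developing red cells are known for much transferrin receptor. The erythroid markers summed to 0.07 and 0.16 TPM. Of these, 3 of 6, Hbb-bs, Alas2 and Slc4a1, had 0 counts in both libraries, which allows up to 0.0902 and 0.0597 CPM. Any part of such cells in the Tfrc difference was not tested.

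Slc40a1, the exporter, stood at 131 and 168 TPM and was 1.35-fold higher in replicate 2 (interval 1.31 to 1.38). Tfrc, with its 3′ elements, was thus lower in replicate 2, and the 5′ element genes Fth1 and Slc40a1 were higher, with Ftl1 near equality. Slc11a2, with a 3′ element at 4 of 5 paired positions, was also near equality, at a log2 ratio of 0.14 (interval 0.09 to 0.19). The Slc11a2 ratio lay on the side of Fth1 and Slc40a1, but at gene level it combines transcripts with and without the element. Whether element position relates to these ratios was not tested. Tfrc over Slc40a1 was 4.21 in replicate 1 and 1.37 in replicate 2, and 3.97 and 1.32 in the second quantification. Fth1 over Tfrc was 34.0 and 103.2. The cause of the difference between the libraries was not tested.

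**Figure D3:**
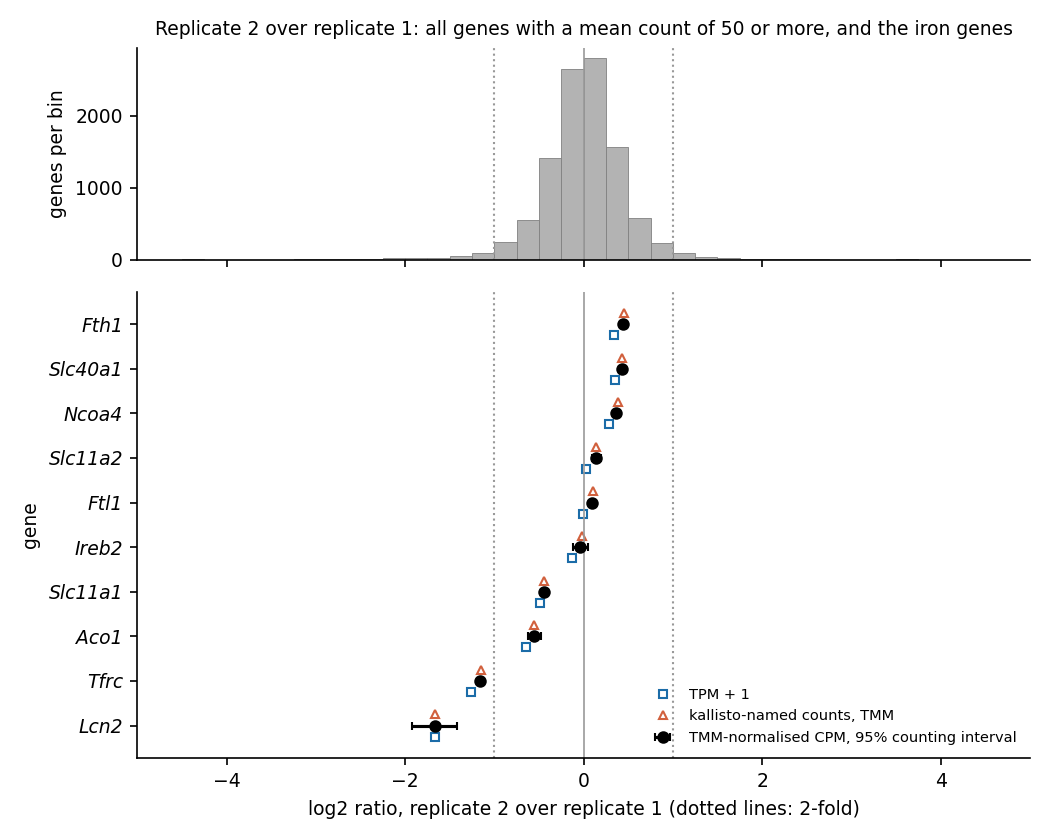
The upper panel shows how many of 10445 genes fall in each bin of the log2 ratio of replicate 2 over replicate 1, and the lower panel the ratio of each iron gene by TMM-normalised CPM with 95% counting intervals (black), TPM + 1 (squares) and the second quantification (triangles). Tfrc at -1.16 and Lcn2 at -1.67 lie beyond the dotted 2-fold line on the lower side, and the other 8 genes lie within the lines.

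How the Tfrc reads were divided among transcripts depended on the quantification. In the first transcript table the coding transcript Tfrc-201 took 77.2% and 76.1% of Tfrc TPM, and Tfrc-204, annotated as a retained intron, took 22.4% and 23.2%. In the second table Tfrc-201 took 99.1% and 99.2%, a gap of 22.5 points in the mean share, where 8.17% of 5300 expressed genes with more than 1 transcript differed by 20 points or more. Tfrc-204 is 3527 bases long and shares 3201 of them with Tfrc-201, the 3′ UTR elements among them, leaving 326 bases of its own. The TPM of Tfrc-201 itself was close in both tables, at 427 and 175 in the first and 449 and 173 in the second. TPM was lower for most genes in the second, however, and the Tfrc-201 counts were not close. They were 44345 and 26788 in the first table and 57043 and 35802 in the second. Transcripts whose sequence holds an element took 99.6% and 99.3% of Tfrc TPM.

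Slc11a1, the phagosomal metal transporter whose loss makes mice susceptible to intracellular bacteria, is known to carry a loss-of-function allele in C57BL/6 mice. It was at 498 and 355 TPM (12251 and 12311 counts) and 1.36-fold lower in replicate 2 (interval 1.32 to 1.39). Much of that gene level came from 1 short noncoding entry: Slc11a1-206, a processed transcript of 378 bases, took 44.3% and 46.0% of TPM but 4.65% of counts in replicate 1. The coding transcript Slc11a1-201 took 48.0% and 45.0% of TPM, or 239 and 160 TPM, and the coding transcripts held 89.8% and 88.4% of counts. A leading transcript under 50% was seen in 16.1% of the 5300 genes, and the median leading share was 80.9%. By leading coding transcript alone, Tfrc-201 was therefore above Slc11a1-201 in both replicates, unlike the order of the means in the gene table. In the second quantification the gene mean of Tfrc, 313 TPM, was already above that of Slc11a1, 307 TPM.

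Slc11a2, which moves iron out of endosomes, was at 68.6 and 69.8 TPM, nearly equal in the replicates (69.2 ± 0.898 TPM, SD, n = 2), and its relative Slc11a1 was 7.26 and 5.08 times higher. Its mRNA is known to end in alternative 3′ ends, with and without an iron-responsive element, and both were present. Slc11a2-205, with the element 37 bases after the stop codon, took 54.5% and 55.4% of TPM, and Slc11a2-201, without it, 36.9% and 35.7%. Of that pair the form with the element made up 59.6% and 60.8%, and 58.1% and 59.8% in the second quantification, so the balance differed by less than 2 points between replicates in each table. Gm5475, which overlaps Slc11a2 on the other strand, had 2 and 11 counts.

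The storage and export mRNAs were almost uniform in this respect. Transcripts with the 5′ element took 99.5% of Fth1 TPM in each replicate, 99.95% of Ftl1 TPM in each, and 98.9% and 96.1% of Slc40a1 TPM. Fth1-201, Ftl1-201 and Slc40a1-201 were the leading transcripts, with mean shares of 99.4%, 99.5% and 97.4%. A leading share above 90% was found for 38.4% of genes.

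**Figure D4:**
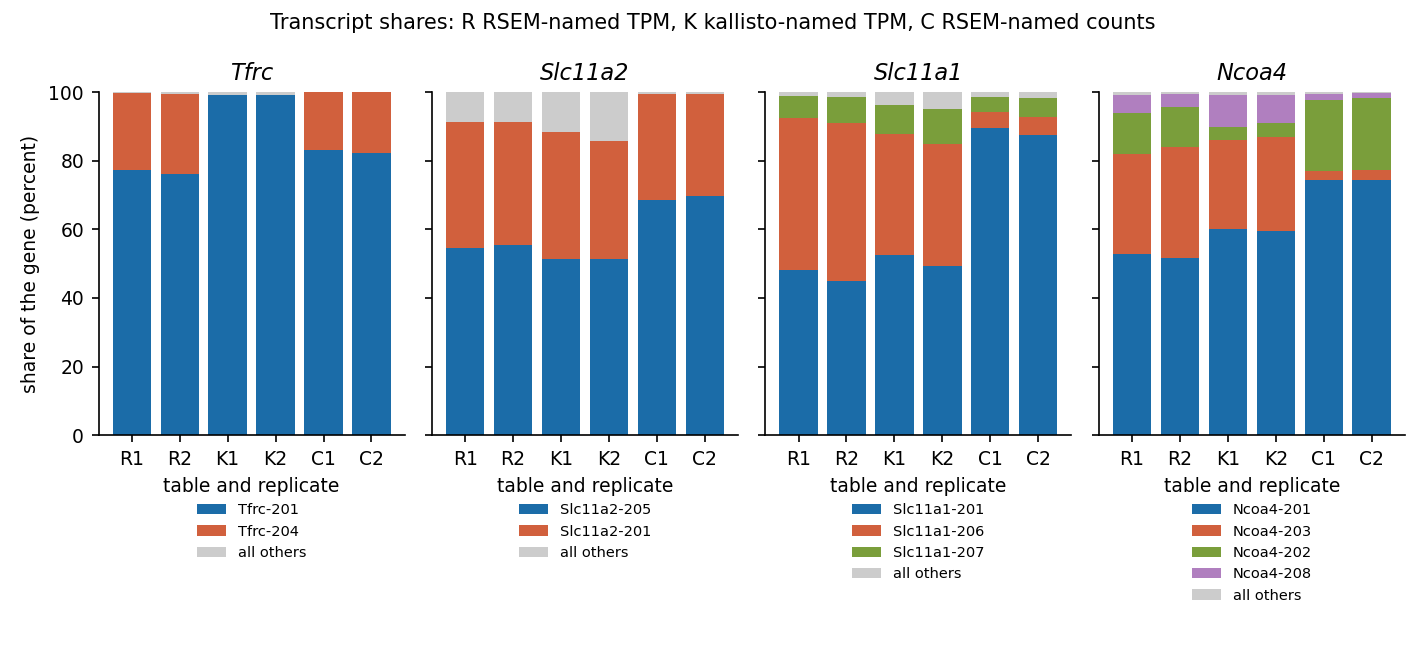
Stacked bars give the percent of each gene in its main transcripts, as TPM of the first transcript table (R), TPM of the second quantification (K) and counts of the first (C), for replicates 1 and 2. Tfrc-204 takes 22.4% and 23.2% of Tfrc in R and almost none in K, and Slc11a1-206 takes 44.3% and 46.0% in R but 4.65% of counts in replicate 1.

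Lcn2, the siderophore-binding lipocalin 2, was at 31.35 TPM in replicate 1 and 9.19 TPM in replicate 2, from 446 and 191 counts. It was 3.18-fold lower in replicate 2 (interval 2.68 to 3.79), the widest gap of the 10 genes under each scaling tried, and 0.996% of all genes lay further apart. Lcn2 is also a granule gene of neutrophils, and the neutrophil markers differed in the same direction. All 7 were lower in replicate 2, with a sum of 517 TPM in replicate 1 and 67.2 TPM in replicate 2, and the 4 averaging 50 or more counts were all over 2-fold lower: Ngp at 67.5 and 3.21 TPM, Ltf, the iron-binding lactoferrin, at 11.4 and 1.76 TPM, S100a8 at 167 and 20.5 TPM and S100a9 at 266 and 41.2 TPM. No neutrophil marker was at 0 in both libraries, and Camp, Elane and Mpo had 31 and 2, 16 and 5, and 75 and 7 counts. Their part in the Lcn2 difference was not tested, and in bulk RNA fewer cells of a type and less RNA per cell cannot be told apart.

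The sensors were the least abundant of the group with Lcn2. Aco1, which encodes IRP1 and serves as cytosolic aconitase when it holds an iron-sulphur cluster, was at 36.2 and 22.8 TPM (2888 and 2688 counts), 1.47-fold lower in replicate 2 (interval 1.39 to 1.54). Ireb2, encoding IRP2, which is degraded when iron is plentiful, was at 14.6 and 13.3 TPM (1800 and 2396 counts), with a log2 ratio of -0.04 (interval -0.12 to 0.05). Aco1 over Ireb2 was 2.48 and 1.72. Both were carried almost wholly by 1 coding transcript, Aco1-201 with 99.5% and 100% of TPM and Ireb2-201 with 98.3% and 97.1%. Ireb2 was the only gene of the 10 whose TMM interval included 0.

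The second quantification gave lower TPM for most genes, with a median log2 difference from the gene table of -0.18 in replicate 1 and -0.30 in replicate 2. Relative to that shift the 10 genes lay between -0.27 and 0.10, and 0 of 10 were 2-fold apart between the tables, where 3.95% and 4.16% of genes were in replicates 1 and 2. Slc11a1 was lowest, at -0.24 and -0.27, and Slc11a2 highest, at 0.07 and 0.10.

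Around these genes, 56 others of iron handling were listed by role and found. Of the 56, 44 reached 1 TPM in both libraries; their median was 34.4 TPM beside 14.1 TPM for all 10285 such genes, and 10 of the 44 (22.7%) reached 100 TPM beside 11.1%. Among those averaging 50 or more counts, 2 of 44 (4.55%) were 2-fold apart, beside 3.96% of all genes, with a median log2 ratio of 0.13 against 0.01. Haem handling had the highest expressed median by role, 89.5 TPM, with 6 of 15 genes at 100 TPM or more in both, and export and oxidation the lowest, with 2 of 5 genes at 1 TPM or more.

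Among uptake genes, Trf, which encodes transferrin itself, was highest at 981 and 764 TPM, followed by Lrp1, a receptor for haem bound to haemopexin, at 259 and 229 TPM and the lysosomal cation channel gene Mcoln1 at 44.6 and 53.7 TPM. Steap4, a metalloreductase gene, had 30 and 336 counts (0.46 and 3.52 TPM) and was 8.21-fold higher in replicate 2, past 2-fold by TMM as no other of the 9 uptake genes with enough counts was. The scavenger receptor gene Cd163, named after its values were seen, had 56 and 118 counts and a log2 ratio of 0.63 by TMM and 1.04 in the second quantification. Export and oxidation were sparse. The ferroxidase gene Cp, for ceruloplasmin, was at 18.9 and 15.9 TPM, Hamp, for the ferroportin-binding hormone hepcidin, had 7 and 15 counts, and Heph had 3 and 1 counts.

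In haem handling, Hmox1, the haem oxygenase that frees iron from haem, was at 390.2 and 192 TPM and 1.89-fold lower in replicate 2. Nfe2l2, 1 of its regulators, was at 196 and 286 TPM and 1.56-fold higher, and the biliverdin reductase gene Blvrb at 208 and 163 TPM. Bach1, of the same list and named after its values were seen, was at 57.9 and 99.8 TPM and 1.87-fold higher in replicate 2. Spic, a transcription factor gene of iron-recycling macrophages, was at 19.9 and 7.79 TPM and 2.36-fold lower in replicate 2, the only haem gene past 2-fold. The iron chaperone genes Pcbp2 and Pcbp1 stood at 411 and 449 TPM and at 180 and 187 TPM, and Skp1a, of the ubiquitin ligase that acts on IRP2, at 85.5 and 73.8 TPM. Of the mitochondrial genes, the importer Slc25a37 was at 69.1 and 89.7 TPM, the iron-sulphur scaffold Iscu at 66.0 and 90.3 TPM, and Isca2 at 43.3 and 35.5 TPM.

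**Figure D5:**
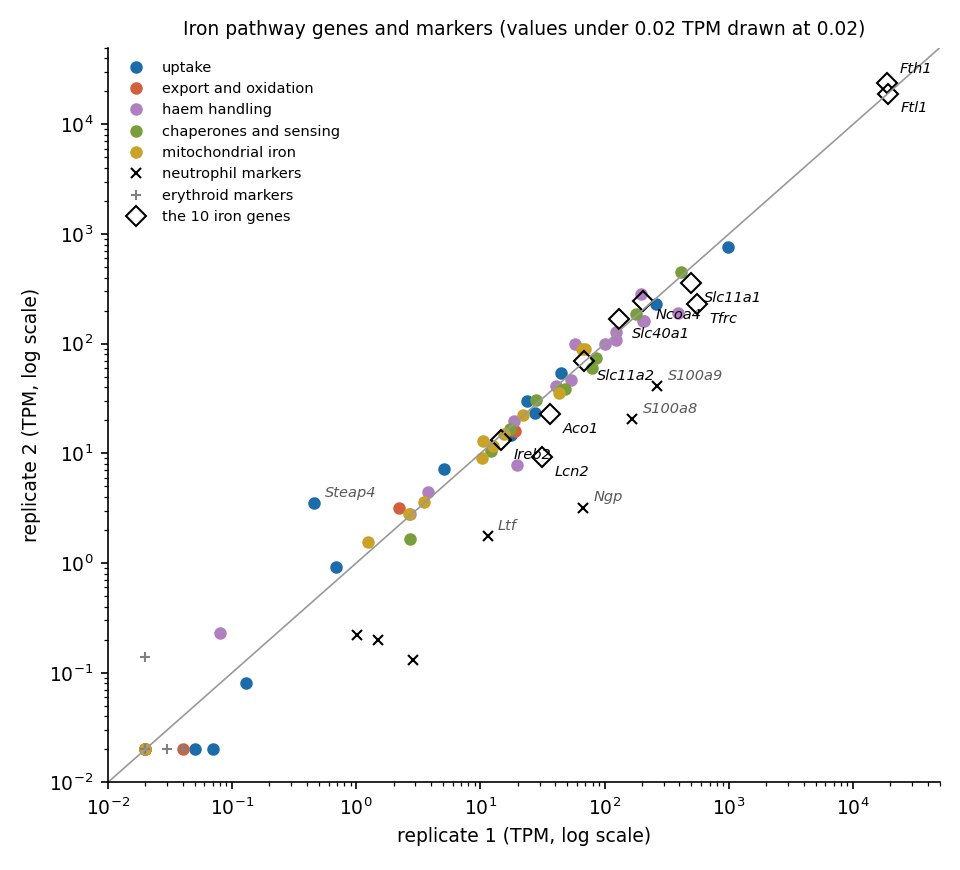
Each point is a gene by its TPM in replicate 1 (x axis) and replicate 2 (y axis), both on log scales, with iron pathway genes in colour by role, neutrophil markers as crosses, erythroid markers as plus signs and the 10 iron genes as diamonds; the line marks equal values. Lcn2 and Tfrc lie below the line, the neutrophil markers further below it, and Steap4 above it at 0.46 and 3.52 TPM.

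As to the cells, all 8 macrophage markers were above 1 TPM in both libraries, led by Lyz2 at 13518 and 19283 TPM and Cd68 at 3236 and 2939 TPM, and 0 of 8 were 2-fold apart. T cell markers summed to 0.61 and 0 TPM, B cell markers to 0.20 and 0.10 TPM, and the hepatocyte markers Alb and Apoa1 had 0 counts. The libraries held 33272581 and 50266403 estimated counts in mouse genes.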

How the data were processed

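Polyadenylated RNA of 1 group of 2 stimulated macrophage libraries was measured, and no groups were compared. Per the file headers, the deposited gene table and first transcript table hold expected counts (estimated, not whole), TPM, the percent of each gene's TPM in a transcript and posterior standard deviations of counts, under the column names RSEM writes. The second transcript table, deposited by the authors under the column names kallisto writes, holds estimated counts and TPM. Assembly mm10 and GENCODE annotation M21 come from the deposited descriptions. Program versions and the strand setting are not given in the sources used here, so reads from a gene and from one on its other strand cannot be separated.

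Of 81881 entries in the gene table, those other than mouse genes, with 0.141% and 0.134% of counts, were left out of library sizes, and 0 columns belonged to other samples. Symbols came from the second table, and 86 identifiers stayed unnamed. Expected counts were rounded, TMM factors came from edgeR 4.0.16 (R 4.3.3, minimum of 10 counts in each library) and size factors from DESeq2 1.42.0. Ratios use CPM and genes averaging 50 or more counts. Intervals are exact Clopper-Pearson at 95%. Without molecular identifiers several reads can stem from 1 molecule, so intervals and the floor of 3 counts reflect counting error alone. A check for 1 library deposited under both numbers gave chi-square 120.8 per degree of freedom over genes, so they were counted as 2 samples. The spread between them over 12178 genes was 21.5% (biological coefficient of variation from edgeR). Copies were found with blastn 2.17.0 against GENCODE M21 transcripts (90% identity over 200 bases). Elements were read from the same transcripts, and expressed coding genes are those at 1 TPM or more in both libraries. Transcript shares of all genes use genes at 10 TPM or more in both libraries. Python 3.11.15, pandas 2.3.3, scipy 1.17.1 and matplotlib 3.10.9 were used, and the ratio script was tested on simulated data.

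The 10 genes and the lists were chosen with earlier results of these data known. Named beside them are, in each role of the pathway list, the 3 genes with the highest mean TPM and each gene 2-fold apart at a mean count of 50 or more, the copies with counts, and the markers. Cd163 and Bach1 were named outside this rule, after their values were seen. Of the 57 pathway symbols, Hjv was not matched. Alternatives were the second quantification, DESeq2 size factors, TPM + 1, posterior mean TPM, TPM without mitochondrial genes, other minimums and folds, 4 of 5 paired stem positions, counts with copies and each replicate alone.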

Additional observations from a re-analysis of the deposited data

How the results depend on the processing

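The count of 2 genes at least 2-fold apart between replicates, Tfrc and Lcn2, was 2 under DESeq2 size factors, the second quantification and a 1.5-fold limit, at which 14.6% of all genes were apart. The count at 100 TPM or more was 6 in each replicate alone and in the second quantification, 7 at 50 TPM and 5 at 200 TPM. The share of all genes was computed only at 100 TPM in both replicates (11.1%), so these alternative counts have no background. Over all genes, the 414 that were 2-fold apart became 2521 without a filter on counts, where more low genes enter, and 186 at a mean count of 200, where fewer genes are tested; they were 423 with size factors and 439 in the second quantification. The count of 0 genes 2-fold apart between quantifications was also 0 at 1.5-fold and, in an alternative chosen after seeing the data, relative to the median of all genes. For those alternatives no share of all genes was computed. Mean TPM moved by more than 1 SD in 7 of 10 genes in the second quantification, 3 of 10 without mitochondrial genes and 1 of 10 with posterior means. The log2 ratio moved beyond its counting interval in 9 of 10 genes as TPM + 1, 3 with size factors, 1 in the second quantification and 0 with copies added. The median of all genes moved too, from 0.01 by TMM to -0.09 as TPM + 1 and 0.04 with size factors. Part of these moves is therefore an offset shared by all genes. The counting intervals hold none of the spread between libraries, and for the ratios no replicate can be left out. No paired analysis was possible because the labels give 1 group. Lcn2, with 191 counts in replicate 2, is the gene whose precision depth limits most.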

Other observations

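Among the 19 expressed coding genes with a fully paired element in the 5′ UTR was Ftl1-ps1, the near-copy of Ftl1, at 272 and 193 TPM in replicates 1 and 2 of the gene table. Its counts were 4021 and 4194 there and 206 and 221 in the second quantification. It was singled out after its values were seen, and a match of letters does not show that a sensor binds there.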
